A study of Rattus norvegicus with 6 samples.

Results

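The BCL2 family genes Bcl2, Bcl2l1, Bcl2l2, Bak1, Bok, Bid, Bad, Bcl2l11 and Bmf were read from RNA-seq counts of H9c2, an established line of rat myoblasts that came from embryonic heart tissue. They are 9 of 26126 entries in the deposited table and were taken by symbol, with no use of their values. A 10th gene of the family, Mcl1, belongs to the same set and was not analysed here. The 6 libraries fall into 3 that received a control adenovirus and 3 that received the adPERK adenovirus, which the study describes as PERK overexpression. All 6, controls included, went through simulated ischemia-reperfusion (sIR), with an ischemia buffer of pH 6.2 and a chamber flushed with 95% N2 and 5% CO2 for 30 min and then sealed for 1.5 to 3.5 h. Serum at 10% is also listed for all 6. There are no libraries without virus or without sIR, so every value describes cells that had both. The labels do not tie the replicates to separate cultures, and p-values therefore reflect library-to-library spread that could be technical. Neither the promoter of the PERK virus nor its dose is stated in the labels.

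BCL2 family proteins control whether the mitochondrial outer membrane is opened during apoptosis. BAK and BAX form the opening and release cytochrome c, which activates caspases, while BCL-2, BCL-XL, BCL-W and MCL-1 hold them in check. BH3-only proteins such as BIM, BMF, BID and BAD sense stress and growth signals and either block the protective proteins or activate BAK and BAX. In heart muscle the family is known for its part in cell loss after ischemia and reperfusion, and prolonged PERK signalling is known to reach it through the factor CHOP. The comparison asks how these transcripts differ after sIR between adPERK and control libraries.

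Total counts ranged from 77923398 to 119087414 per library. Control replicate 3 stood apart, with 19287 entries above 0 against 15377 to 16685 in the other 5 libraries, and with 45.4% of 1090 olfactory receptor genes above 0 against 6.24% to 14.5%. Its effect is given below for Eif2ak3, Bmf, Bcl2l11 and Bok, and the changes of sign without it are given at the end. Eif2ak3, which encodes PERK, lay between 24.0 and 26.9 CPM in control and between 26.0 and 26.5 CPM in adPERK libraries. CPM is a count scaled to the size of its library, as edgeR computes it. The overexpression was thus not visible in this row (log2 fold change 0.03, SE 0.06, edgeR adjusted p = 0.887; -0.02 without control replicate 3), and directions below rest on the labels. Whether the row would count a transgene was not tested. Of 7 myoblast markers 6 passed the count filter and Myf5 was at 0 in every library. Their summed level was 1554 to 1636 CPM in control and 1477 to 1656 CPM in adPERK libraries, and 1 of them fell, Myog (edgeR adjusted p = 0.0137). The largest part of this sum was Acta2, at 793 to 986 CPM per library, followed by Myog. Tnnt2, at 160 to 183 CPM, was counted in this list and not among the cardiomyocyte markers. Des and Actc1 were at most 5.98 CPM. Markers of adult cardiomyocytes summed to at most 0.809 CPM, with Nppa at 0 in all 6, although the labels name heart as the source. Endothelial markers summed to 1.29 to 1.99 CPM in control and 0.638 to 0.919 CPM in adPERK libraries. In the same order, leukocyte markers summed to 8.46 to 12.1 and 9.98 to 11.0 CPM, and epithelial markers to 48.7 to 52.8 and 53.2 to 54.3 CPM. Most of the endothelial sum was Tek, most of the leukocyte sum Cd14, and most of the epithelial sum Krt8 and Krt7. Cdh5, Kdr, Ptprc, Epcam, Cdh1 and Krt18 were each at most 0.282 CPM in any library. The part of these markers in the results below was not tested.

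None of the 9 genes passed the test at an adjusted p of 0.05 in edgeR's quasi-likelihood test, where 0.421% of 14488 tested entries did. The unadjusted p was under 0.05 for 3 of the 9, Bmf and Bcl2l11 with lower values and Bcl2l1 with higher values in adPERK libraries, beside 11.2% of all tested entries (5.94% higher and 5.29% lower). The values of the groups did not overlap for 4 of the 9, Bcl2l1 and Bcl2l2 higher and Bmf and Bcl2l11 lower, beside 18.2% of all tested entries (9.66% higher and 8.55% lower). The median log2 fold change of the 9 was -0.01, and that of all tested entries was -0.0045. The median size of the difference, regardless of sign, was 0.10 for the 9 and 0.10 for all tested entries. With DESeq2, which called 4.04% of the entries for which it gave an adjusted p, 2 of the 9 passed, Bmf and Bcl2l11, both lower. DESeq2 gave no adjusted p for Bcl2. In bulk RNA, fewer cells with a transcript and less of it per cell cannot be told apart.

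Bmf and Bcl2l11 had the smallest unadjusted p of the 9. The 250 bases before the start of each gene in RefSeq are shown because these are the 2 genes whose adPERK values all lay below the control values. Capitals mark matches, on either strand, to a GC box (GGGCGG) or a forkhead site of FOXO factors (GTAAACA). The Bmf stretch is chr3:125974065-125974314 and the Bcl2l11 stretch is chr3:135819792-135820041, both of build GRCr8, on the minus and the plus strand of chromosome 3 and printed 5′ to 3′ in the direction of the gene.
Bmf: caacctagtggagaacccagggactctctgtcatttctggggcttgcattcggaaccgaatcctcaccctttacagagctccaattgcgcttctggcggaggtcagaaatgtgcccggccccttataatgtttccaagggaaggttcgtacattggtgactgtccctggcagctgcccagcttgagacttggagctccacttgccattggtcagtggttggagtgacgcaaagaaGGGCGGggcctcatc
Bcl2l11: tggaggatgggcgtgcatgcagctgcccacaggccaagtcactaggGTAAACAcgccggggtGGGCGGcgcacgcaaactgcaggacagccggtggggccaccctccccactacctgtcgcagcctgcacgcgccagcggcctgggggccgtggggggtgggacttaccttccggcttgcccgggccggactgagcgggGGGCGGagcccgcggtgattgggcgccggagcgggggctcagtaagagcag
The Bmf stretch held 1 GC box, which starts 15 bases before the gene's start, and no forkhead site. The Bcl2l11 stretch held 2 GC boxes, starting 188 and 51 bases before the gene's start, and 1 forkhead site, starting 204 bases before it. Of 33469 RefSeq stretches of the same length, 30.5% held a GC box and 3.21% the forkhead site. These motifs were not particular to Bmf and Bcl2l11. The Bad stretch also held a forkhead site, and those of Bid, Bak1 and Bcl2l2 held GC boxes. Neither the Bmf nor the Bcl2l11 stretch held a cyclic AMP response element (TGACGTCA), an AP-1 site (TGANTCA) or a C/EBP-ATF element (TGATGNAAT). Of all stretches, 1.59%, 6.34% and 0.944% held these. Bcl2l1 has several stretches, and a C/EBP-ATF element was in 1 of them. None of the motifs overlapped another in the Bmf and Bcl2l11 stretches. The GC content was 55.2% for Bmf and 72.0% for Bcl2l11, against a median of 51.2% over all stretches. A match in letters is a description and not a bound site, and a missing one says only that these letters are not in the stretch.

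The BH3-only genes held the smallest p-values and, in Bcl2l11, the largest difference. Bmf encodes a BH3-only protein that is kept on the cytoskeleton through a dynein light chain and acts against BCL-2 and BCL-XL once released. Control replicates 1 to 3 had 22.5, 21.0 and 24.3 CPM of Bmf, against 15.7, 17.6 and 17.7 CPM in adPERK replicates 1 to 3. All 3 adPERK libraries lay below all 3 controls. The gap between the nearest libraries, control replicate 2 and adPERK replicate 3, was wider than between any 2 adPERK libraries. It was slightly narrower than the gap between control replicates 2 and 3. The means were 22.6 ± 1.70 and 17.0 ± 1.11 CPM (SD, n = 3), a log2 fold change of -0.41 (SE 0.08, 95% interval -0.59 to -0.23), which corresponds to a level 24.7% below control. Its unadjusted p of 8.4e-04 ranked 128th of 14488, and the edgeR adjusted p was 0.0949. Bmf passed in 2 of 13 alternative analyses, DESeq2 (adjusted p = 0.00135) and edgeR's robust fit (adjusted p = 0.0448, with 0.911% of entries called). Over the 13 the log2 fold change stayed between -0.46 and -0.35 and the adjusted p between 0.00135 and 0.243. Without control replicate 3 it was -0.35 (edgeR adjusted p = 0.243). For Bmf, the authors' deposited table has a log2 fold change of -0.41 with adjusted p = 0.00378. There 2.27% of entries with an adjusted p lie under 0.05, and 1.55% do so with lower values in adPERK libraries.

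Bcl2l11 encodes BIM, a BH3-only protein that binds every protective member and can activate BAK and BAX directly. Control replicates 1 to 3 had 11.8, 8.35 and 12.8 CPM of Bcl2l11, against 7.15, 8.15 and 6.60 CPM in adPERK replicates 1 to 3. The groups did not overlap, but control replicate 2 lay close to adPERK replicate 2, while the other two controls were higher. The means were 11.0 ± 2.33 and 7.30 ± 0.784 CPM (SD, n = 3). Its log2 fold change of -0.59 was the largest in size among the 9 (SE 0.17, 95% interval -0.97 to -0.20), and the edgeR adjusted p was 0.225. The control libraries had an SD of 0.33 for Bcl2l11 and of 0.11 for Bmf, both in log2 CPM. With 1 library left out the log2 fold change ranged from -0.75 (without control replicate 2) to -0.46 (without control replicate 3), with edgeR adjusted p from 0.129 to 0.455. DESeq2 called it (adjusted p = 0.0178), and the authors' deposited table gives -0.58 with adjusted p = 0.0373. The gene overlaps Acoxl in the RefSeq annotation, and counting by strand is not stated, so reads from Acoxl cannot be told apart where the 2 overlap. Acoxl itself was between 0.641 and 1.35 CPM in the 6 libraries.

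Bid encodes the BH3-only protein that caspase-8 cuts to carry a death receptor signal to mitochondria. It was 14.8, 16.4 and 15.9 CPM in control and 14.6, 15.8 and 16.2 CPM in adPERK replicates 1 to 3. The ranges nearly coincide, and the 95% interval of the log2 fold change ran from -0.19 to 0.17. Bad encodes a BH3-only protein held inactive by phosphorylation downstream of survival kinases. It was 36.3, 32.9 and 32.2 CPM in control and 31.0, 36.5 and 31.3 CPM in adPERK replicates 1 to 3, with 1 high library in each group. Its log2 fold change was -0.04 (95% interval -0.21 to 0.14). For both genes the interval takes in 0, and a decrease as large as that of Bmf's estimate lies outside it. The 4 BH3-only genes among the 9, Bmf, Bcl2l11, Bid and Bad, had log2 fold changes below 0, as did 7427 of 14488 tested entries. The median of the 4, -0.22, lies between the values of Bmf and Bcl2l11 and those of Bid and Bad, which were near 0. The log2 fold changes of Bid and Bad took either sign when 1 library was left out.

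**Figure D1:**
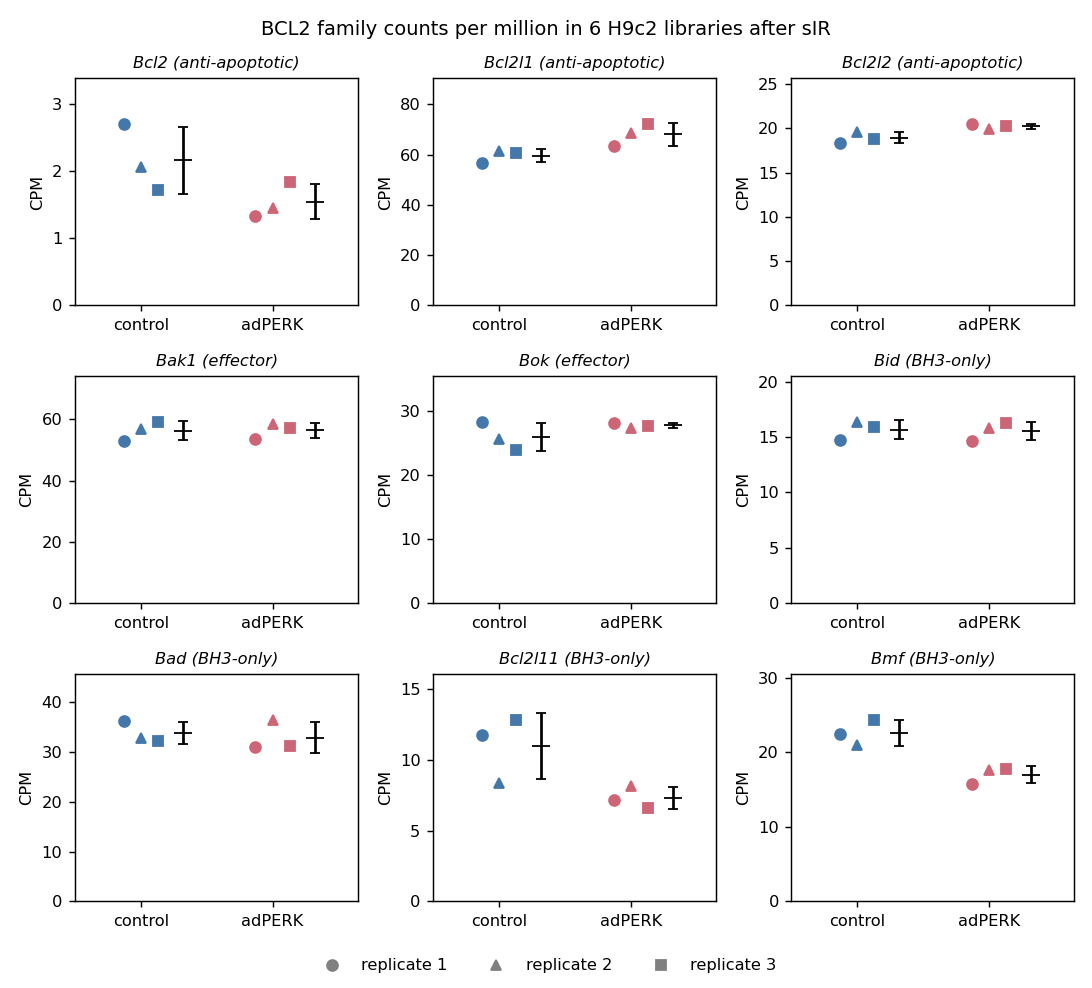
CPM (vertical axes, each from 0) of 9 BCL2 family genes in 3 control and 3 adPERK libraries; symbols are replicates and black bars are mean ± SD. Bmf and Bcl2l11 lie lower and Bcl2l1 and Bcl2l2 higher in every adPERK library than in any control, and the groups overlap for the other 5 genes.

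Among the protective genes the values went in both directions. Bcl2l1, which encodes BCL-XL, was 56.8, 61.4 and 60.7 CPM in control and 63.4, 68.6 and 72.3 CPM in adPERK replicates 1 to 3. Every adPERK library lay above every control, by the least for adPERK replicate 1. The means were 59.6 ± 2.51 and 68.1 ± 4.47 CPM (SD, n = 3), a log2 fold change of 0.19 (SE 0.06, 95% interval 0.05 to 0.33), or 14.2% above control. The unadjusted p of 0.0129 became an edgeR adjusted p of 0.275, and in the 13 alternatives the adjusted p was between 0.0663 and 0.523. The authors' deposited table gives 0.20 with adjusted p = 0.299. A ribosomal pseudogene, Rps2-ps43, overlaps the gene in RefSeq and may share reads with it. Bcl2 overlaps 2 long noncoding RNA genes there and Bak1 overlaps 1, with the same limit.

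Bcl2l2, which encodes BCL-W, was 18.4, 19.6 and 18.8 CPM in control and 20.5, 20.0 and 20.2 CPM in adPERK replicates 1 to 3. The groups did not overlap, with a narrow gap between control replicate 2 and adPERK replicate 2. The log2 fold change was 0.10 (95% interval -0.04 to 0.23, edgeR adjusted p = 0.584), so a level more than 17.3% above control lies outside the interval. Bcl2, the founding gene of the family, had the lowest counts of the 9, from 132 to 299 per library. It was 2.70, 2.06 and 1.72 CPM in control and 1.34, 1.45 and 1.83 CPM in adPERK replicates 1 to 3, and the groups overlapped. Control replicate 1 was the highest library. The log2 fold change was -0.49 (SE 0.22, 95% interval -1.01 to 0.03, edgeR adjusted p = 0.467) and became -0.30 without control replicate 1. At this depth a difference of -50.2% and one of 0 both lie within its interval.

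The 2 effector genes did not pass the test, and Bak1 had the smallest difference of the 9. Bak1, which encodes BAK, was 53.0, 56.7 and 59.2 CPM in control and 53.5, 58.5 and 57.1 CPM in adPERK replicates 1 to 3. The group means were 56.3 ± 3.13 and 56.4 ± 2.59 CPM (SD, n = 3), and the 95% interval of the log2 fold change was -0.13 to 0.13, which leaves outside it a level more than 9.64% above control. Bok encodes an effector that can act without BAK and BAX. It was 28.3, 25.5 and 23.9 CPM in control and 28.1, 27.3 and 27.7 CPM in adPERK replicates 1 to 3. The adPERK libraries lay close together, inside the range of the controls. Its log2 fold change was 0.10 (95% interval -0.05 to 0.25, edgeR adjusted p = 0.633). The log2 fold change of Bok was 0.042 without control replicate 3 and 0.16 without control replicate 1.

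**Figure D2:**
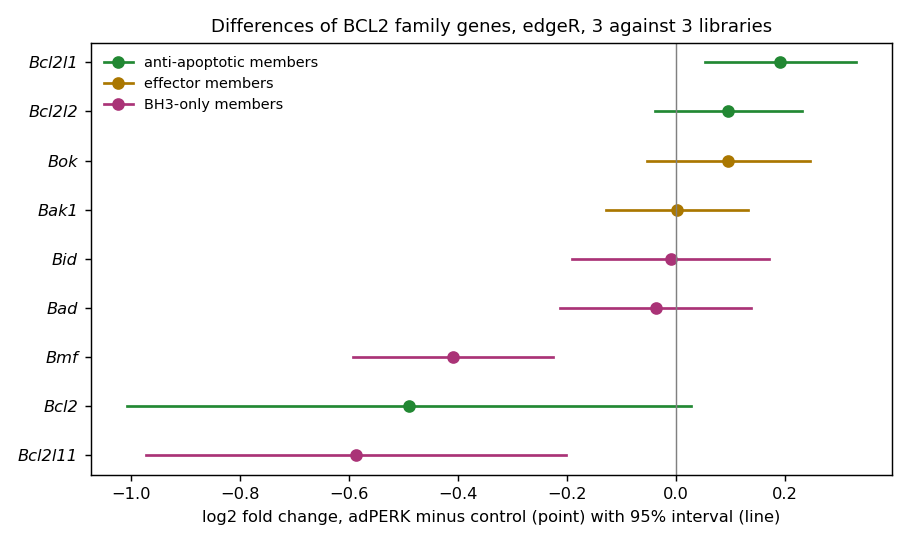
Log2 fold change of each gene (horizontal axis, adPERK minus control; point, with the 95% interval as a line), coloured by role. The intervals of Bmf, Bcl2l11 and Bcl2l1 lie off 0, before adjustment over all entries, and those of the other 6 genes take in 0.

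Ratios between 2 genes of one library do not depend on how libraries are scaled. The ratios here were chosen after the values were seen and carry no test. Bcl2l1 gave 2.53, 2.93 and 2.49 counts per Bmf count in control replicates 1 to 3 and 4.03, 3.90 and 4.08 in adPERK replicates 1 to 3. The adPERK ratios lay close together and were 1.51 times the control ratios on average. Bcl2l1 counts per Bcl2l11 count were 4.83, 7.35 and 4.74 in control and 8.87, 8.41 and 10.9 in adPERK replicates 1 to 3. The groups again did not overlap, control replicate 2 being nearest to adPERK, and the means differed 1.67 times. Against Bid, a gene of the same class, Bmf counts were 1.52, 1.28 and 1.53 in control and 1.08, 1.11 and 1.09 in adPERK replicates 1 to 3. Bcl2l11 counts per Bid count were 0.797, 0.510 and 0.807 in control and 0.489, 0.515 and 0.407 in adPERK replicates 1 to 3, and here the groups overlapped, control replicate 2 lying below adPERK replicate 2. Bak1 counts per Bcl2l1 count were 0.934, 0.924 and 0.975 in control and 0.844, 0.853 and 0.790 in adPERK replicates 1 to 3. Ratios of counts compare libraries only and do not say which gene has more transcripts, because gene length was not accounted for.

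**Figure D3:**
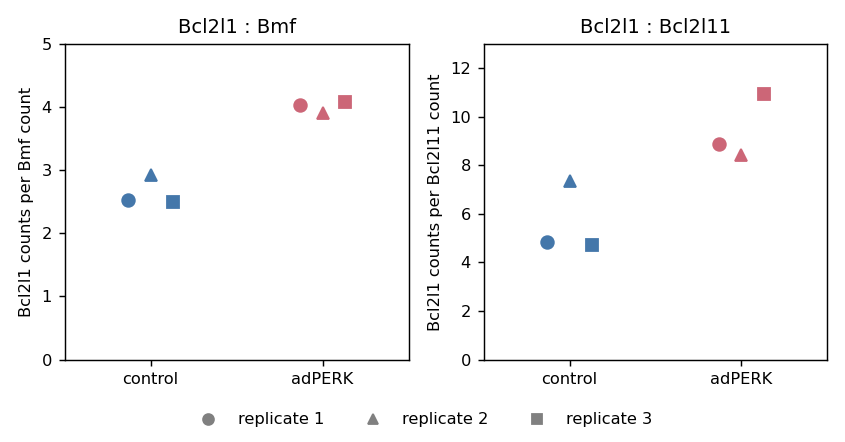
Counts of Bcl2l1 per count of Bmf (left) and of Bcl2l11 (right), vertical axes from 0, in 3 control and 3 adPERK libraries; each symbol is a library. The adPERK ratios to Bmf lie between 3.90 and 4.08 and all control ratios at 2.93 or below.

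The calls for Bmf and Bcl2l11 changed between edgeR and DESeq2, and that for Bmf also with edgeR's robust fit. The log2 fold changes of both genes kept their sign. Over the 13 alternatives every log2 fold change of Bmf, Bcl2l11 and Bcl2 was below 0 and every one of Bcl2l1, Bcl2l2 and Bok was above 0. The groups of Bmf, Bcl2l11, Bcl2l1 and Bcl2l2 do not overlap, so leaving out a library could hardly turn their sign. With 1 library left out none of the 9 genes passed.

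**Figure D4:**
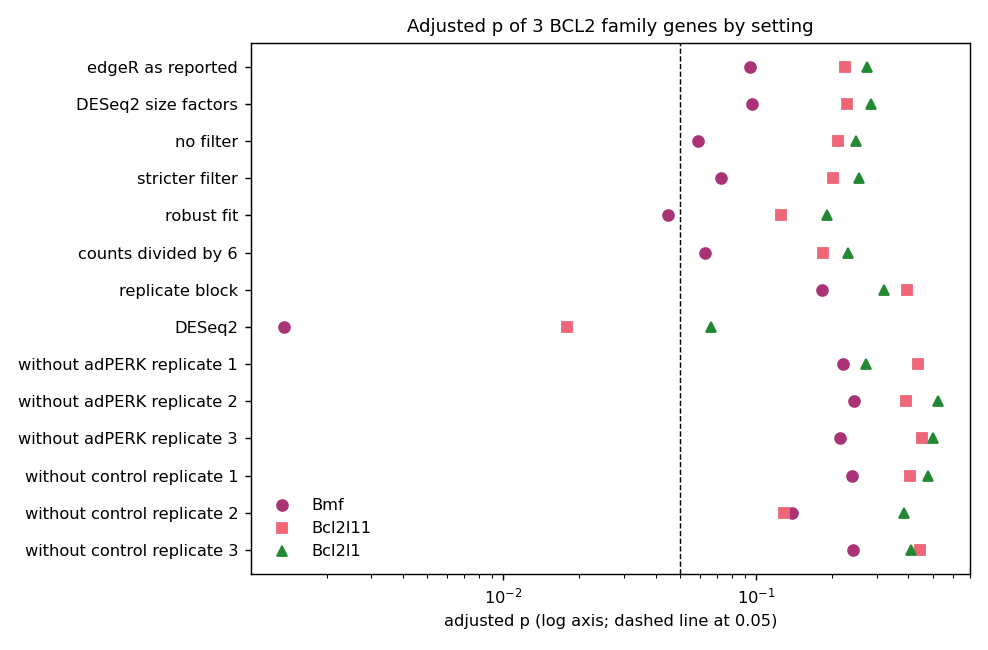
Adjusted p of Bmf, Bcl2l11 and Bcl2l1 (horizontal log axis, dashed line at 0.05) in the reported edgeR fit and 13 alternatives (vertical axis). Bmf lies left of the line with DESeq2 and the robust fit, Bcl2l11 with DESeq2, and Bcl2l1 in none.

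Bcl2l1 had the highest mean CPM of the 9, and the tested genes whose log2 CPM followed it most closely over the 6 libraries were S100a11, Tmem192 and Pdcd6ip. Pearson's r was 0.996, 0.995 and 0.995, Spearman's rho was 1 for each, and r was 0.994, 0.984 and 0.981 without the 2 libraries farthest from the Bcl2l1 median. They were picked as the highest of 14487 genes over only 6 libraries, so r carries no test. Of those genes 215 had r above 0.9. Their log2 fold changes were 0.09, 0.31 and 0.07 (edgeR adjusted p = 0.381, 0.301 and 0.542).

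Further BCL2 family genes and the apoptosis genes around them were read from 6 lists. Of 64 genes on these lists 54 were tested, and 0 passed edgeR's test in either direction, while 7 had an unadjusted p under 0.05, 6 higher and 1 lower, beside 11.2% of all tested entries (5.94% higher and 5.29% lower). DESeq2 called 3 of them, Pmaip1, Trib3 and Pim3, all higher, beside 4.04% of all entries with an adjusted p. Both totals are near those shares, though more of these genes went higher than lower, and no list test was run. How many of the 54 had an adjusted p from DESeq2 is not given here. The median log2 fold change of the 54 was 0.02. Of 14 other family genes 6 were tested, with a median of -0.02. Pmaip1, which encodes NOXA, a BH3-only protein that acts mainly on MCL-1, was 123, 130 and 132 CPM in control and 158, 143 and 149 CPM in adPERK replicates 1 to 3. All adPERK values lay above the controls (log2 fold change 0.22, SE 0.05, edgeR adjusted p = 0.155, DESeq2 adjusted p = 0.00103). Pmaip1 thus stood on the other side of 0 from the BH3-only genes Bmf and Bcl2l11. Bax, the second main effector, was 66.5, 63.9 and 66.7 CPM in control and 55.0, 66.6 and 67.7 CPM in adPERK replicates 1 to 3. Its log2 fold change was -0.06, and 0.03 without adPERK replicate 1 (edgeR adjusted p = 0.837 and 0.886). Bcl2l10, Bcl2l14 and Bcl2l15 were listed at 0 in all 6 libraries, which allows up to 18 counts, or 0.231 CPM in the shallowest library, and Bcl2a1 and Bik were above 0 in 1 library each. Bbc3 and Hrk were not analysed here.

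All 11 genes of the apoptosome and caspase list were tested and none passed (median -0.04). Apaf1, the scaffold that gathers caspase-9, had a log2 fold change of -0.11 (edgeR adjusted p = 0.526). Of 6 inhibitor of apoptosis genes, all tested (median -0.12), none passed. Birc6, a giant ubiquitin ligase, was at -0.0079 and Birc2, which encodes cIAP1, at -0.15, with adPERK values of 39.3, 40.0 and 35.4 CPM below control values of 41.7, 42.5 and 43.2 CPM (edgeR adjusted p = 0.329). Of 12 death receptor genes and adaptors 10 were tested and none passed (median 0.04). Tnfrsf1a, a TNF receptor, and Ripk3, a necroptosis kinase, were at 0.02 and 0.14. Mlkl, which RIPK3 activates to open the plasma membrane in necroptosis, was at 0.25 (edgeR adjusted p = 0.339) and was chosen after its values were seen. The 5 outer membrane genes, all tested, had a median of 0.02, with the channels Vdac2 and Vdac3 at 0.03 and 0.02.

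The 16 regulators of BCL2 family proteins were all tested, with a median of 0.02 and none past the test. An unadjusted p under 0.05 in edgeR's test was found for 4 of the 16, Dynll1, Trib3 and Pim3 among them, all higher. Over all tested entries the share was 11.2%, with 5.94% higher and 5.29% lower. Usp9x, a deubiquitinase that stabilises MCL-1, was at -0.03, and Dynll1, the dynein light chain that holds BIM, was at 0.09 (edgeR adjusted p = 0.331). After their values were seen, Trib3, Pim3, Foxo3 and Foxo1 were added. Trib3, a pseudokinase gene that CHOP is known to raise, was 30.9, 33.5 and 33.9 CPM in control and 39.2, 39.6 and 37.6 CPM in adPERK replicates 1 to 3 (log2 fold change 0.24, SE 0.05, edgeR adjusted p = 0.112). Pim3 encodes a kinase that phosphorylates BAD and was at 0.26 (SE 0.06, edgeR adjusted p = 0.136). Foxo3 encodes a forkhead factor known to drive Bcl2l11 and was at -0.13, with overlapping groups (edgeR adjusted p = 0.456). Foxo1 encodes another forkhead factor and was at -0.48 (SE 0.22, edgeR adjusted p = 0.456), with 101 to 167 counts per library. Neither Foxo3 nor Foxo1 had an unadjusted p under 0.05 in edgeR's test, and a link to Bcl2l11 was not tested.

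**Figure D5:**
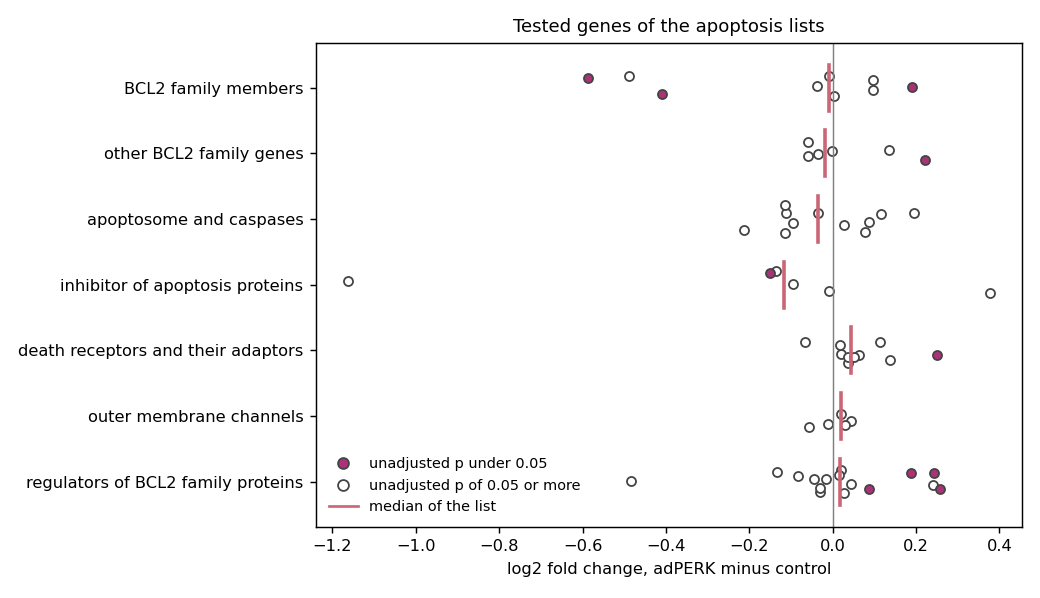
Log2 fold change (horizontal axis, adPERK minus control) of each tested gene of the BCL2 family and of 6 apoptosis lists; filled points have an unadjusted p under 0.05 and vertical bars are list medians. Medians lie between -0.12 and 0.04, and the 2 filled points farthest left are Bcl2l11 and Bmf.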

How the data were processed

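RNA was measured in 3 control and 3 adPERK libraries of H9c2 cells, made from 1 ug of total RNA per the labels' protocols. The authors deposited raw counts per gene, used as deposited. Bowtie 0.12.2 and the build mm9 appear in the submitters' processing notes, though entries carry rat symbols, and how reads were counted is not stated there or in the labels. Beside the counts, the authors deposited normalized signal and their own log2 fold changes, test score and p-values, of which only fold changes and adjusted p-values are quoted. A table with 6 columns of per-sample values that match no label was not used. Within the narrow range of spacings searched, low counts recurred most at 5.40 to 5.75 counts. The strength was 0.105 to 0.147, where 1 is a perfect recurrence, and no reference value was computed. Fewer independent fragments may lie behind a count, which was not tested. Limits for counts of 0 use 3 steps of 6 counts, a step set above that spacing, and cover counting error only. Intervals of fold changes include the spread between libraries.

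Counts were filtered (filterByExpr, minimum count 10), scaled by TMM and tested over 14488 entries with edgeR 4.0.16 in R 4.3.3 (glmQLFTest, group as the only term, Benjamini-Hochberg). Standard errors came from the fold change and F. DESeq2 1.42.0 was an alternative. On simulated data for this comparison (14112 entries tested) edgeR found 6 of the 50 genes set to differ 1.2-fold, 33 of the 50 set to 1.5-fold and all 50 set to 2-fold, and 5 of 144 calls were false. With DESeq2, 24 of 165 calls were false. The simulation gave each gene the spread of the trend over expression and no spread of its own. Genes set to differ had a mean of at least 5 CPM, and Bcl2 had a mean of 1.85 CPM. The simulated counts may therefore not hold for genes with more spread or fewer reads. The members and lists were chosen with earlier results of these data known. Named genes are the members, Eif2ak3, Bax and Pmaip1, changed genes of each list or else its 2 with the highest CPM, and the 3 genes most like the member of highest CPM; others are said to be chosen after their values were seen. A gene that this rule takes is not reported here and stays in the tests and counts. Promoter stretches are from RefSeq (GRCr8), where 9 of the 10 family genes were matched; log2 CPM used a prior count of 2.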

Additional observations from a re-analysis of the deposited data

How the results depend on the processing

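The 13 alternatives were chosen with earlier results of these data known. None of the 9 BCL2 family genes passed in the reported fit, 2 did with DESeq2, 1 with the robust fit, and 0 in the other 11 alternatives, leaving out each library included. The lists had 0 calls, and 3 with DESeq2. Over all entries the 61 calls became 9 with a replicate block, 392 with DESeq2, 94 without a filter, 93 after division of counts by 6, 132 in the robust fit, and 12 (without adPERK replicate 1) to 38 (without control replicate 1) with 1 library left out; the cause was not tested, apart from fewer libraries in the last. Of 273 values of 21 named genes, 15 changed sign, all with 1 library left out and none called. Leaving out control replicate 3 changed the sign for Bid, Eif2ak3, Tnfrsf1a and Vdac3. With 1 library left out their log2 fold changes ranged from -0.041 to 0.040 for Bak1, -0.053 to 0.035 for Bid, -0.12 to 0.017 for Bad, -0.020 to 0.060 for Eif2ak3, -0.11 to 0.034 for Bax, -0.034 to 0.028 for Birc6, -0.013 to 0.037 for Tnfrsf1a and -0.025 to 0.057 for Vdac3. Without a change of sign they ranged over more than 1.5 times for Vdac2 (0.0030 to 0.050), Usp9x (-0.067 to -0.0091), Apaf1 (-0.16 to -0.063), Ripk3 (0.079 to 0.19), Birc2 (-0.19 to -0.098), Bok (0.042 to 0.16), Bcl2 (-0.63 to -0.30), Bcl2l1 (0.15 to 0.24), Bcl2l11 (-0.75 to -0.46) and Bcl2l2 (0.075 to 0.12), none of them called. No pairing by replicate number was seen: deviations from the group means of same-numbered libraries correlated at -0.06, 0.01 and 0.03 across genes. Noise in low counts could hide a shared effect, so pairing is not excluded. With the replicate block Bmf had edgeR adjusted p = 0.183. Depth limits Bcl2 most, with at most 299 counts per library.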
